A study of Mus musculus with 48 samples.

Results

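The genes described here are 37 interferon-stimulated genes of the mouse, chosen by a fixed list of gene symbols and measured in colon tissue. All 37 were found among the 55401 genes of the deposited table, and all 37 had at least 1 count in every mouse and passed the filter on low counts. The colons came from 48 male mice on a C57BL/6J background, 18 to 20 weeks old, that were single-housed with a running wheel and sampled on day 2 of constant darkness. The Bmal1 IEC-/- group carried the floxed Bmal1 allele on both chromosomes and Cre recombinase under the Villin promoter (Bmal1fl/fl x Villin CRE/wt), which removes the clock gene Bmal1 from intestinal epithelial cells. Their littermate controls (Bmal1fl/fl x Villin wt/wt, called Bmal1fl/fl below) carried the same floxed alleles and no Cre. Each genotype was sampled at 6 circadian times (CT1, CT5, CT9, CT13, CT17 and CT21), with 4 mice per genotype and time. CT1, CT5 and CT9 are called the day and the other times the night. The comparisons ask whether the interferon-stimulated genes follow circadian time in the colon, and whether their level or rhythm differs when the epithelial clock is absent.

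Interferons are secreted proteins that signal through receptors coupled to the kinases Jak1, Jak2 and Tyk2. Type I and type III interferons activate a transcription factor complex that holds Stat2 and Irf9 and binds the interferon-stimulated response element (ISRE) in promoters, whereas interferon gamma acts through the gamma-activated site (GAS). The induced genes include sensors of viral nucleic acid (Ddx58, Ifih1, Dhx58, Zbp1), antiviral effectors such as the Ifit, Oas and Mx families, GTPases that act against intracellular microbes (Gbp and Irg families), and parts of the antigen processing machinery (Psmb8, Psmb9, Tap1). In the healthy gut a low, microbiota-dependent interferon signal keeps many of these genes expressed without infection.

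Promoter sequence from RefSeq (GRCm38.p6) was at hand for 27 of the 37 genes, from 250 bases before to 50 bases after the gene start. The ISRE core, spelled as 2 GAAA units with 2 bases of any kind between them and searched on both strands, was present in 15 of these 27 genes (55.6%) and in 3.99% of 27025 gene symbols with such a window. The GAS letters, TTC and GAA with 3 bases of any kind between them, which read the same on both strands, were present in 8 of 27 genes (29.6%) against 9.55% of all symbols. The E-box CACGTG, the element bound by the Bmal1 and Clock pair, was found in 0 of 27 windows and in 8.09% of all symbols, and the letters AGGTCA of a ROR element core in 18.5% of the 27 against 18.1%. A match of letters is a description of the window and was not tested as a binding site. The 160 bases before the gene start are shown for some of the genes, with ISRE core matches in capitals. Rsad2 carries 1 match, Isg15 3 overlapping matches, Ifit3 2, Oas3 1 and Irgm1 2 overlapping matches, and Xaf1 is shown as a gene with 0 matches.
Rsad2 (chr12:26456453-26456612, minus strand): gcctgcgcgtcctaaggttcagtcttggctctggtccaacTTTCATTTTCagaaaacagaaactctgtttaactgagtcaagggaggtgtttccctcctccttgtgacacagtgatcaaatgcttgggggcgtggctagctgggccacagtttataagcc
Isg15 (chr4:156200819-156200978, minus strand): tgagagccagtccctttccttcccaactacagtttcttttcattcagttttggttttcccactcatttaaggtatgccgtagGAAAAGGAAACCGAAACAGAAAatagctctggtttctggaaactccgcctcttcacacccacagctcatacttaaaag
Ifit3 (chr19:34583369-34583528, plus strand): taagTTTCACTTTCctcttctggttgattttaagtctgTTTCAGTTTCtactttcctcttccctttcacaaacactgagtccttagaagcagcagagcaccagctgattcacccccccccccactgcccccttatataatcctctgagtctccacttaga
Oas3 (chr5:120777660-120777819, minus strand): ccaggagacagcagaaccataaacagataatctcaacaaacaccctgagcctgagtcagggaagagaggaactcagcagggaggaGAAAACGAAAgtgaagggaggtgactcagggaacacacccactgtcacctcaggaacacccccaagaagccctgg
Irgm1 (chr11:48871421-48871580, minus strand): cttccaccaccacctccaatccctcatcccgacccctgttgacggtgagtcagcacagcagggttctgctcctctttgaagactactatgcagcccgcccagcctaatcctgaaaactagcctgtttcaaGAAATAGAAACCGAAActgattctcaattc
Xaf1 (chr11:72301469-72301628, plus strand): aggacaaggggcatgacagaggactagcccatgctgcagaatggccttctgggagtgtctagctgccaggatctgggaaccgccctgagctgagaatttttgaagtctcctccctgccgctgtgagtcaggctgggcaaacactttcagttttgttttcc

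The total of each mouse lay between 3144997 and 4785844 counts. Arntl, the gene that encodes Bmal1, was at 244, 247, 256 and 283 normalized counts in the 4 Bmal1fl/fl mice at CT1 and at 15.8, 22.4, 31.6 and 34.9 at CT9. In Bmal1 IEC-/- mice its group means stayed between 113 at CT9 and 138 at CT1 and CT21, and the change of its rhythm was called (adjusted p = 4.07e-13 in edgeR without the pair of mice described next). Gene counts include the exons outside the deletion and the cells that keep Bmal1. The pair that stood apart from the other mice is SV384 and SV385, both Bmal1 IEC-/- mice of CT1. Their median correlation with the other mice over 14618 genes was 0.9539 and 0.9356, with SV410 of the same genotype next at 0.9546, and the summed level of 5 smooth muscle markers was 3374 normalized counts in SV385 against a median of 15468 in its genotype. Values without this pair are given below beside the calls that it changes. Colonocyte and goblet cell markers were abundant in every mouse, and the small intestinal genes Apoa4 and Apoc3 had a median of 0 counts. In bulk tissue, fewer cells of a type and less RNA per cell cannot be told apart.

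Levels per length, in RPKM (counts per kilobase of exon and per 1e+06 counts of a mouse), ran from medians of 0.301 to 37.7 among the 37 genes. The highest median over the 48 mice was that of Irf1, a transcription factor of the interferon response, at 37.7 RPKM (range 28.7 to 51.4). Irf7, the transcription factor that amplifies type I interferon production, followed at 33.1 (19.4 to 56.8) and Oas1a, which makes the 2',5'-linked oligoadenylates that activate RNase L, at 21.7 (13.4 to 37.8). The ranges of Irf1 and Irf7 overlapped. The annotated exons of Irf7 form 1 block of 3776 bases that covers its whole gene span, so its level per length and its order against Irf1 are uncertain. The lowest medians were 0.301 for Ifi44 (0.0408 to 0.781), 0.481 for Mx2 (0.169 to 1.25) and 0.654 for Gbp6 (0.119 to 1.3), a guanylate-binding protein, and their ranges overlapped as well. Gbp6 shares 1726 of its 5954 exon bases with another gene on the same strand, so its level per length and its rank are uncertain. Values between mice were widest for low and inducible genes. Oas3 ran from 5.97 to 88.3 normalized counts over all mice and Iigp1, an immunity-related GTPase, from 10.4 to 154, whereas Irf1 ran from 459 to 770. Reads of the Ifit, Oas, Gbp and Irg families can fit several near-identical copies, and the study's methods set a threshold on mapping quality. Such reads may be missing from the counts, so single members of these families are uncertain. Psmb9 and Tap1 overlap on opposite strands.

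In Bmal1fl/fl mice, 18 of the 37 genes changed with circadian time (edgeR, adjusted p under 0.05 over all genes), where 40.2% of 14618 genes did. JTK_cycle, a rank test against cosine curves of a 24-h period with its p adjusted over the 12 phases searched, found 20 of 37 rhythmic (49.7% of all genes). Both shares are near the background. Adjustment over genes as well took Ddx58, Dhx58, Gbp7 and Psmb9 from the 20 and left the others. The share of all genes left by that adjustment is not given here. By least squares cosine fit, 13 of the 20 peaked between 4 and 12 h of circadian time, and the other 7 were spread from 3.35 to 21.7 h. Of the 7269 rhythmic genes of the table, 26.8% peaked between 4 and 12 h. This window joins those of 4 to 8 h and 8 to 12 h, which held the most members (8 and 5 of the 20). The comparison is therefore a description and not a test. The 20 hold several genes that moved together in single mice (below), so they are not independent. Of the 19 antiviral effectors, 10 had their highest group mean at CT9 and 3 at CT5, and 13 had their lowest at CT21, as the heat map of group means shows.

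**Figure D1:**
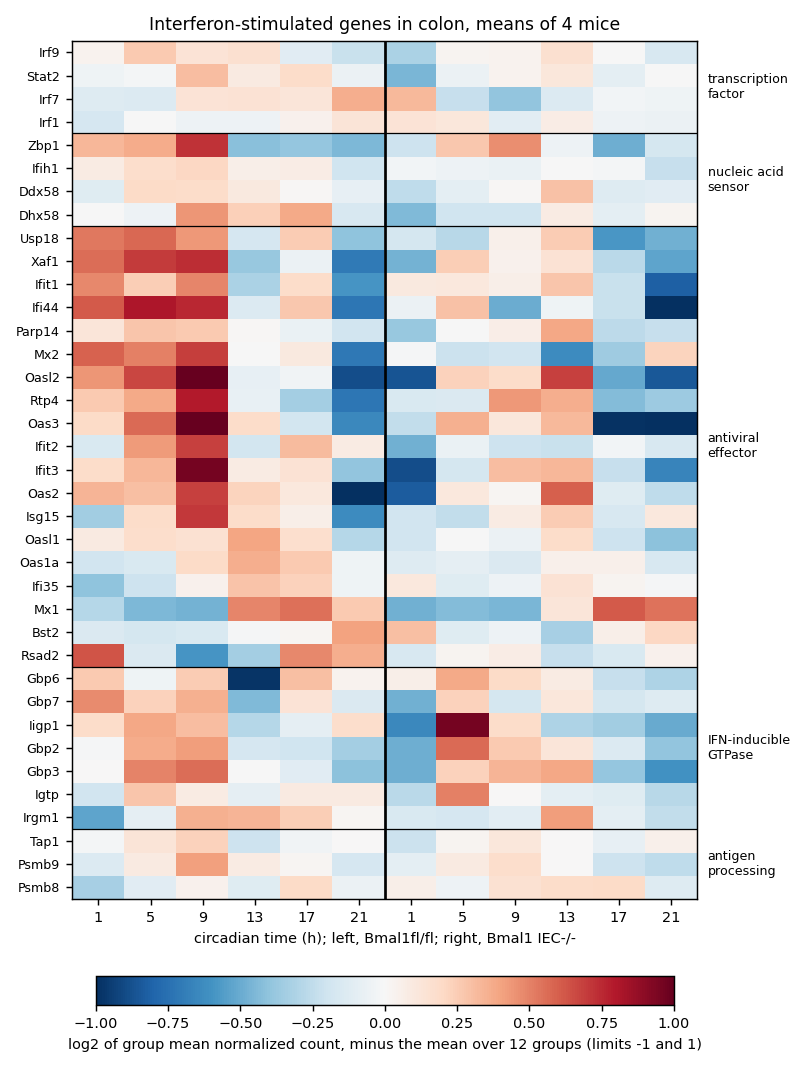
Rows are the 37 genes grouped by role and ordered by the peak in Bmal1fl/fl mice; columns are the 6 circadian times of Bmal1fl/fl (left) and Bmal1 IEC-/- mice (right). Colour gives the log2 of the group mean of 4 mice minus the gene's mean over the 12 groups, drawn at the limit beyond -1 or 1. In Bmal1fl/fl mice 10 of 19 antiviral effectors are highest at CT9, while Rsad2 and Mx1 are lowest then.

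Among the antiviral effectors, Oasl2, a protein related to the 2',5'-oligoadenylate synthetases, was at 106, 260, 361 and 427 normalized counts in the 4 Bmal1fl/fl mice at CT9 and at 58.7, 75.3, 76.6 and 97.5 at CT21. The groups did not overlap. Pairs of times shown in this way, here and below, were high and low among the 6 group means. A lack of overlap between them is a description and not a test. Its peak fell at 7.05 ± 0.917 h (SE) with an amplitude of 0.70 ± 0.17 on the log2 scale (adjusted p = 0.000792 for time). Oas3 had the largest amplitude of the 20 rhythmic genes, 0.74 ± 0.17, with a peak at 8.12 ± 0.882 h. Xaf1, an interferon-induced protein that counters inhibitors of apoptosis, was at 43.2, 72.6, 73.9 and 94.6 normalized counts at CT9 and fell to 18, 26.5, 27.8 and 32.2 at CT21 (adjusted p = 4.6e-05 for time over the 6 times). Its 3 day means lay between 62.7 and 71.1 and its 3 night means between 26.1 and 40.8. Rtp4, a receptor transporter that limits interferon responses, peaked at 7.18 ± 0.739 h with an amplitude of 0.59 ± 0.11.

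Of the 4 nucleic acid sensors, Zbp1 and Ifih1 passed the time test in Bmal1fl/fl mice. Zbp1, which senses Z-form nucleic acid, was at 80.6, 82.2, 162 and 171 normalized counts at CT9 and at 34.1, 55.6, 62.7 and 67.6 at CT21, without overlap (peak 5.71 ± 0.838 h, adjusted p = 0.000216). Ifih1, the RNA sensor MDA5, moved far less, with an amplitude of 0.15 ± 0.04 on the log2 scale. Ddx58, the sensor RIG-I, had the same amplitude (0.15 ± 0.05) and did not pass the time test (adjusted p = 0.235), while its exact JTK_cycle p was 0.0497.

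Of the 7 interferon-inducible GTPases, 5 passed the time test. Gbp2 (peak 6.75 ± 0.9 h) and Gbp3 (7.39 ± 0.974 h) peaked with the antiviral effectors. Irgm1, a GTPase that regulates the other Irg proteins and autophagy, was lowest at CT1 (53.4, 55.2, 67.5 and 76.2 normalized counts) and reached 94, 115, 116 and 135 at CT13, without overlap. Its cosine peak was later than that of the Gbp genes, at 13 ± 0.76 h. None of the 4 transcription factors and none of the 3 antigen processing genes passed the time test in edgeR, with 1 of each at an unadjusted p under 0.05. The smallest adjusted p among these 7 genes were 0.0718 for Psmb9 and 0.0905 for Irf9, the DNA-binding subunit of the complex that holds Stat2. By JTK_cycle Irf9 and Psmb9 were rhythmic.

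Of the 19 antiviral effectors, 6 were highest at another time than CT5 or CT9. Oas1a, Oasl1 and Ifi35 were highest at CT13, Mx1 at CT17, Bst2 at CT21 and Rsad2 at CT1. By cosine fit Oas1a peaked at 13.9 h (exact JTK_cycle p = 0.0015) and Ifi35 at 14.2 h (adjusted p = 0.00504 for time). Rsad2 (viperin, an enzyme that makes a chain-terminating nucleotide; chr12:26442746-26456452 in GRCm38) was at 84.7, 84.9, 113 and 128 normalized counts at CT1, and at 34.8, 38.5, 48.4 and 55.4 at CT9. These groups did not overlap. Its fitted peak was at 21.7 ± 0.581 h with an amplitude of 0.57 ± 0.09, a 2.2-fold difference between peak and trough, and it had the smallest p of the 37 genes in the time test (adjusted p = 3.43e-06). Mx1 (chr16:97447035-97462907), an antiviral dynamin-like GTPase, was between 31.6 and 48.7 in all 12 Bmal1fl/fl mice of CT1, CT5 and CT9, and between 44.4 and 98.7 in the 12 mice of CT13, CT17 and CT21. Its peak was at 16.9 ± 0.657 h (adjusted p = 0.000129). RefSeq lists Mx1 of the reference strain as a transcribed pseudogene.

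In Bmal1 IEC-/- mice, 12 of the 37 genes changed with time (28.5% of all genes), and 11 without SV384 and SV385 (3283 of 15073 genes). JTK_cycle called 15 of 37 (29.2% of all genes), and 11 without the pair. With adjustment over genes as well, 7 of the 15 were left. The JTK_cycle shares of all genes without the pair and after that adjustment are not given here. These lower counts therefore cannot be read as a trait of the 37 genes. The time test passed in both genotypes for 10 genes, in Bmal1fl/fl mice alone for 8 and in Bmal1 IEC-/- mice alone for 2, the sensor Ddx58 and the GTPase Iigp1. Ddx58 lost this call without the pair (adjusted p = 0.0746). Passing in 1 genotype alone does not show a difference between genotypes, which is tested below. Mx1 kept its time course. Its 4 values were 55.2, 79.4, 85.6 and 88.5 normalized counts at CT17 and 29.7, 30, 42.6 and 47.3 at CT5, without overlap, with a peak at 17.6 ± 0.627 h (adjusted p = 0.000107). Parp14, an ADP-ribosyltransferase, was highest at CT13 (328, 373, 424 and 494) and lowest at CT1 (197, 213, 258 and 284), again without overlap (adjusted p = 0.000751). Oasl2 was at 153, 208, 215 and 336 at CT13 and at 52.8, 52.8, 59.1 and 152 at CT21.

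**Figure D2:**
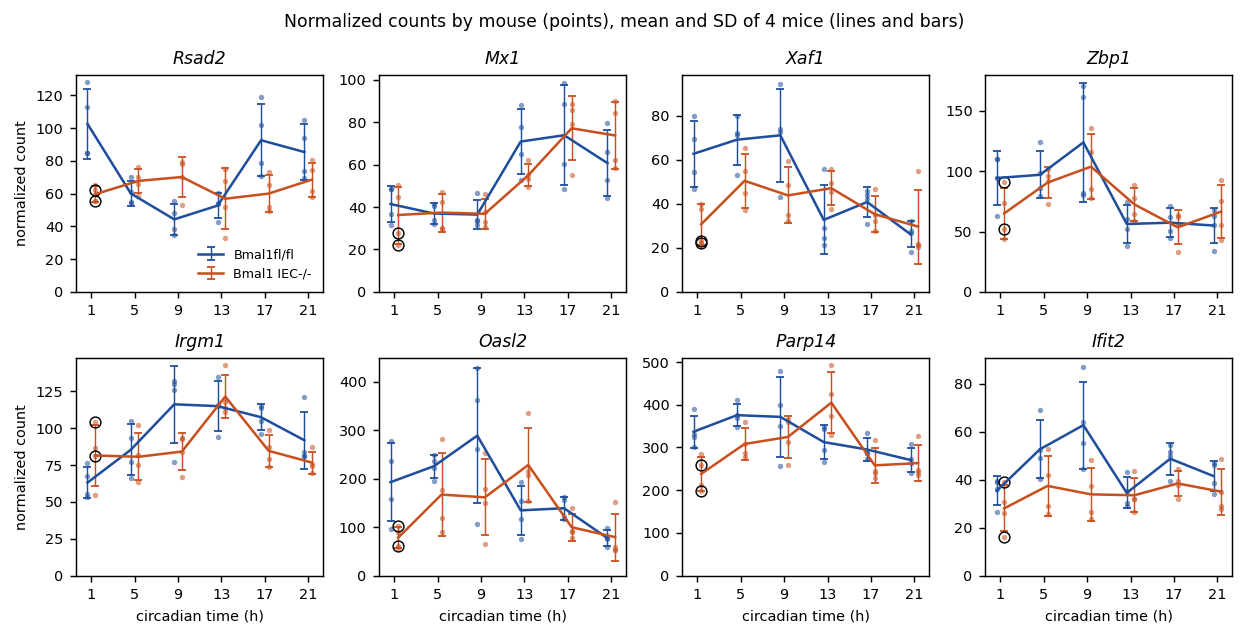
Normalized counts of 8 genes against circadian time in hours; each point is a mouse (blue, Bmal1fl/fl; orange, Bmal1 IEC-/-), lines join the means of 4 mice and bars are SD, with SV384 and SV385 circled. Rsad2 varies from 44.3 at CT9 to 102 at CT1 in Bmal1fl/fl means and from 56.9 to 70.2 in Bmal1 IEC-/- means, while the Mx1 curves lie close together.

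For the 12 genes that JTK_cycle called in both genotypes, the peak was later in Bmal1 IEC-/- mice for 10, with a median shift of 2.42 h (range -1.51 to 4.3 h). Later peaks were general in the table. Of 3293 genes called in both genotypes, 80.8% peaked later in Bmal1 IEC-/- mice, with a median of 1.39 h. Parp14 moved from 6.57 ± 0.958 to 10.9 ± 0.893 h, Irf9 from 7.62 ± 1.28 to 11.8 ± 1.26 h and Oasl2 from 7.05 ± 0.917 to 10.3 ± 0.923 h. The peaks of Oas3 (8.12 and 8.05 h) and Mx1 (16.9 and 17.6 h) differed by about their standard errors or less. The median ratio of amplitudes (Bmal1 IEC-/- over Bmal1fl/fl) was 1.07 for the 12 genes and 0.845 for the 3293. With adjustment over genes, 6 of the 12 were called in both genotypes (Ifit3, Oas3, Oasl2, Mx1, Parp14 and Gbp3), and 5 of these peaked later in Bmal1 IEC-/- mice. The share of all genes that stayed called in both genotypes is not given here. No single one of the 12 passed the test for a change of rhythm. The smallest adjusted p was 0.118, for Parp14.

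**Figure D3:**
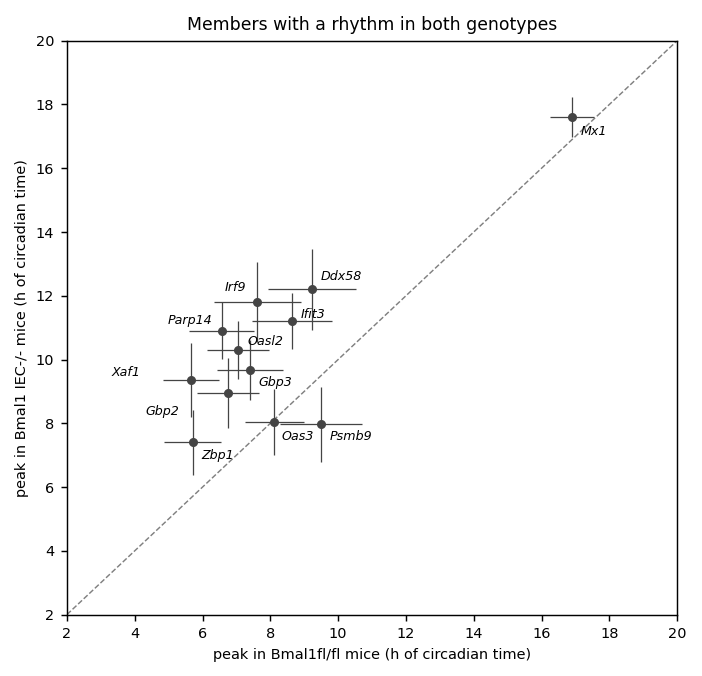
Peak time of the cosine fit in Bmal1fl/fl mice (horizontal axis, hours of circadian time) against Bmal1 IEC-/- mice (vertical axis) for the 12 genes rhythmic in both; bars are SE and the dashed line marks equal times. The plot holds 10 points above the line, and Psmb9 and Oas3 lie on or below it.

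The change of rhythm test, an edgeR test of the difference in the cosine and sine terms, called 1 of the 37 genes, Rsad2 (1.92% of all genes). In Bmal1 IEC-/- mice Rsad2 was at 55.2, 55.6, 62.5 and 65.2 normalized counts at CT1 and at 53.1, 70.1, 77.8 and 79.6 at CT9. These values overlap, and those at CT1 lie below all 4 Bmal1fl/fl values of that time. Its amplitude was 0.09 ± 0.08 and its exact JTK_cycle p was 1. The adjusted p for the change was 0.00606 with all mice, 0.0153 without SV384 and SV385, and at most 0.0144 when any single mouse was left out. The test of genotype by time over the 6 times also called Rsad2 alone among the 37 (adjusted p = 0.00479, and 0.0257 without the pair), where 3.98% of all genes passed. Without the low-count filter 10 of the 37 passed, Rsad2 among them, and the share of all genes in that fit is not given here. With the filter, Gbp7 (adjusted p = 0.0646) and Parp14 (0.0711) were next. Ifi35, the third gene in the change of rhythm test (adjusted p = 0.182), had an amplitude of 0.33 ± 0.07 in Bmal1fl/fl and 0.06 ± 0.05 in Bmal1 IEC-/- mice.

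Over all times, 3 of the 37 genes were lower in Bmal1 IEC-/- mice and 0 were higher. Among all genes, 12% were called in either direction and 5.56% were lower. At an unadjusted p under 0.05, 12 members were lower and 0 were higher. The share of all genes at that unadjusted threshold is not given here. Such counts, here and in other paragraphs, cannot be set against the table. DESeq2 called 5 lower and 0 higher, where it called 1952 of 14618 genes in either direction. The fold changes leaned to one side, with 32 of 37 below 0 and a median log2 fold change of -0.15, whereas 49.8% of all genes were below 0 with a median of 0.0. The 37 genes varied together between mice (below), so counts of signs, here and in later paragraphs, are not counts of independent results. With the fold change of 1.5 that the study's methods add, 0 of 37 remained (1.35% of all genes).

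Ifit2, which binds viral RNA and restrains translation (chr19:34550694-34576419), had the smallest p. It ran from 26.6 to 87.2 normalized counts (median 43.9) in 24 Bmal1fl/fl mice and from 16.2 to 53 (median 32) in 24 Bmal1 IEC-/- mice. The ranges overlap, and the log2 fold change was -0.40 ± 0.10 (SE, adjusted p = 0.00539). Its adjusted p stayed at 0.0114 or less when any single mouse was left out. Ifit3, the partner of the Ifit complex, ran from 19.9 to 107 (median 44) and from 8.1 to 68.1 (median 36.9), a log2 fold change of -0.43 ± 0.15 (adjusted p = 0.0431). It passed in 24 of 48 fits that left out a mouse and had an adjusted p of 0.0542 without SV384 and SV385. Ifih1 ran from 245 to 408 (median 315) and from 231 to 353 (median 286), a small shift of -0.14 ± 0.04 (adjusted p = 0.0312). It passed in 43 of 48 fits that left out a mouse, with the largest adjusted p of 0.0636 without SV412. Next in order were Oas3 (-0.51 ± 0.18, adjusted p = 0.0542) and Dhx58, a regulator of the RIG-I family of sensors (-0.28 ± 0.10, adjusted p = 0.0627), neither of which passed. Without the pair 4 genes passed, all lower, where 1590 of 15073 genes passed in either direction. Ifit2 and Ifih1 remained, Dhx58 (adjusted p = 0.039) and Irf7 were gained, and Ifit3 was lost. Irf7 was at -0.17 ± 0.09 with all mice (adjusted p = 0.214) and at -0.28 ± 0.07 without the pair (adjusted p = 0.00585).

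By role, 17 of 19 antiviral effectors had a negative fold change (median -0.17), as did all 4 sensors (median -0.11), 3 of 4 transcription factors (median -0.12), 6 of 7 GTPases (median -0.13) and 2 of 3 antigen processing genes (median -0.03). The 5 genes above 0 were Psmb8, an immunoproteasome subunit (0.13 ± 0.07, adjusted p = 0.247), Irf1 (0.04), Gbp6 (0.04), Ifi35 (0.02) and Bst2, the tetherin that holds budding virus on the cell (0.01). None of these 5 passed, and each but Psmb8 changed sign when at least 1 of CT1, CT5, CT9 and CT13 was left out. Marker genes of other cell types were read beside these values. Of 4 NK cell markers 2 were tested and 1, Gzma, was lower in Bmal1 IEC-/- mice, and the summed NK markers ran from 6.62 to 44.3 normalized counts (median 29.2) in Bmal1fl/fl and from 5.79 to 29.4 (median 16.7) in Bmal1 IEC-/- mice. The 6 T cell markers (4 tested, 0 called by edgeR and 2 at an unadjusted p under 0.05) summed to 47.1 to 98.2 (median 74.1) and 28.9 to 80.2 (median 60.2). Macrophage markers (6 tested, 0 called by edgeR and 0 at an unadjusted p under 0.05) had medians of 588 and 586, and the B cell sums had a median of 19.1 in both genotypes. Outside the immune lists, edgeR called 2 of 6 epithelial markers higher, 2 of 4 colonocyte markers lower, 1 of 5 goblet cell markers higher and 1 lower, 2 of 4 endothelial markers lower, 1 of 5 smooth muscle markers lower and 1 of 5 fibroblast markers lower in Bmal1 IEC-/- mice. The background of 12% of all genes called for genotype holds for these markers too. The part of all these markers in the fold changes was not tested.

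**Figure D4:**
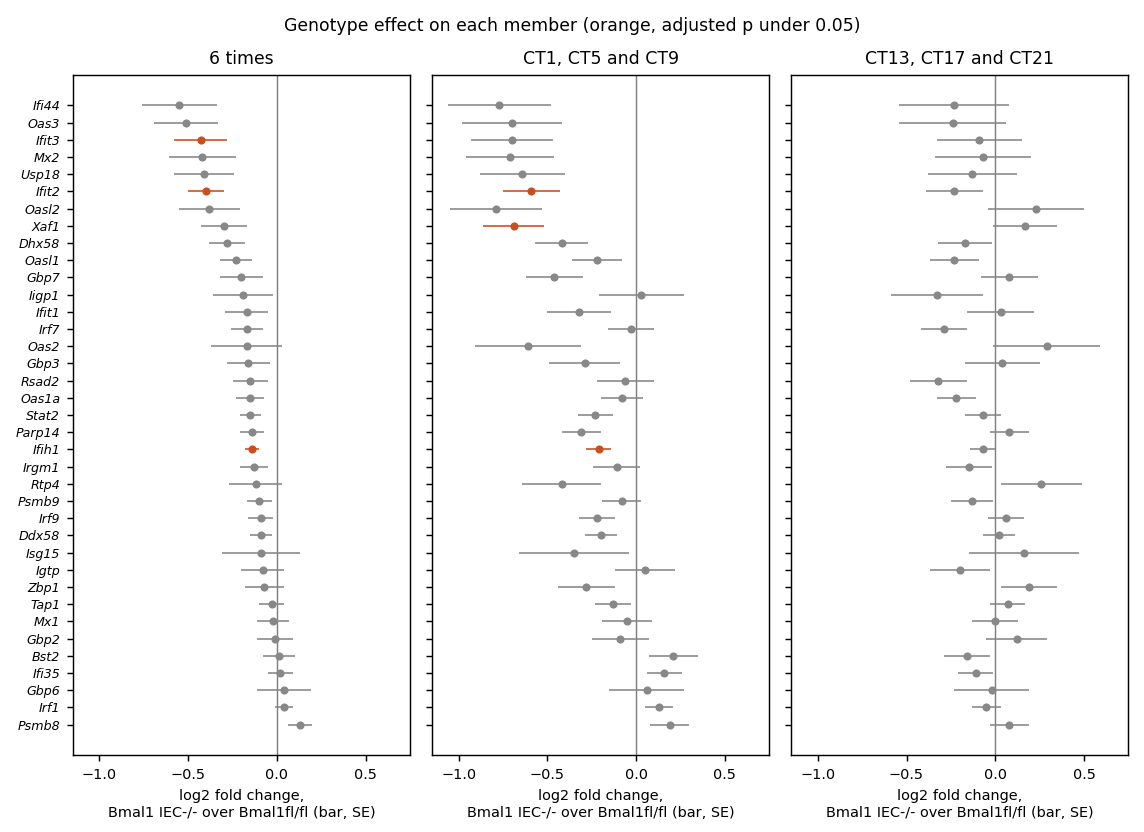
Log2 fold change of Bmal1 IEC-/- over Bmal1fl/fl mice (points, with SE) for the 37 genes over 6 times (left), in the day (middle) and in the night (right), ordered by the left panel; orange marks an adjusted p under 0.05. The left panel holds 32 points below 0 and 3 orange ones, and the spread to negative values is wider in the day than in the night.

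In the day, 30 of 37 genes had a negative fold change (median -0.22) and 3 passed as lower in Bmal1 IEC-/- mice, Xaf1 (-0.69, adjusted p = 0.0103), Ifit2 (-0.59, adjusted p = 0.0153) and Ifih1 (-0.21, adjusted p = 0.0484), where 7.3% of all genes passed. The day call of Ifih1 held in 13 of 48 fits that left out a mouse, with adjusted p up to 0.118 without SV412. Xaf1 lost the call without the pair (-0.57, adjusted p = 0.0535). In the night, 21 of 37 had a negative fold change (median -0.07) and edgeR called 0 genes (3.38% of all genes), with 1 at an unadjusted p under 0.05. The test of the difference between night and day, genotype by period, called 0 of 37 (0.137% of all genes) in edgeR and 0 in DESeq2, with 7 at an unadjusted p under 0.05 in each. The largest difference was that of Oasl2 (night minus day 1.01, adjusted p = 0.237), and Xaf1 had the smallest adjusted p (0.86, adjusted p = 0.14), followed by Oasl2 and Parp14 (0.39, adjusted p = 0.252). A different effect in day and night was therefore not shown for any of the 37 genes.

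At single times, 8 of 37 genes passed at CT1 (24.7% of all genes), 7 lower and 1 higher. The 7 were Rsad2, Gbp7, Xaf1, Oasl2, Parp14, Ifit3 and Stat2, and the 1 was Ifi35 (0.50, adjusted p = 0.0248). Most of these calls were lost without the pair of mice. With 2 Bmal1 IEC-/- mice left at CT1, 1 gene passed (1.21% of 15073 genes), Gbp7 (log2 fold change -1.13 ± 0.30, adjusted p = 0.0478), and the sizes were -0.78 for Rsad2 (adjusted p = 0.0871), -0.71 for Xaf1 (0.28) and -1.39 for Oasl2 (0.138). With SV385 alone left out 2 genes passed, and with Bmal1fl/fl replicate SV455 left out 4. The shares of all genes at CT1 in those fits are not given here. At CT9, 1 gene passed (1.46% of all genes), Ifit2, at 44.3, 55.5, 64.2 and 87.2 normalized counts in Bmal1fl/fl and 23.7, 26.5, 37.3 and 48.1 in Bmal1 IEC-/- mice (-0.87, adjusted p = 0.0403). The 2 groups overlap in 1 mouse each, and the call was lost without SV412, the highest Bmal1fl/fl mouse (adjusted p = 0.304).

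No gene of the 37 passed in edgeR at CT5 (0.376% of all genes), CT13 (3.58%), CT17 (0.876%) or CT21 (0.328%), with 4, 5, 2 and 1 at an unadjusted p under 0.05. Without the low-count filter 3 genes passed at CT13 and 1 at CT21, and without the mouse SV421 1 gene passed at CT13. The count of negative signs differed between times. The fold change was negative for 33 of 37 genes at CT9 (median -0.26), for 32 at CT17 (median -0.23) and for 14 at CT13 (median 0.10). Among all genes, 48.7%, 47.7% and 50.8% were negative at CT9, CT17 and CT13. The 37 genes varied together, and the test of genotype by time called Rsad2 alone. A change of the genotype effect with time was therefore not shown for the other genes. At CT13 Parp14 was at 265, 293, 344 and 348 normalized counts in Bmal1fl/fl and at 328, 373, 424 and 494 in Bmal1 IEC-/- mice, overlapping (0.37, adjusted p = 0.157). Counts over all times depended on which times entered. Without CT13, 9 of 37 genes passed the genotype test, and without CT9 edgeR called 0, with 8 at an unadjusted p under 0.05. The shares of all genes in these fits are not given here.

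The 37 genes also varied together between mice of the same group. After subtracting the mean of each of the 12 groups, the median correlation over 666 pairs of members was 0.31 across 48 mice (0.34 without SV384 and SV385) and 596 pairs were above 0, while the median between a member and the other genes was 0.0. The pairs share libraries, and the values are a description. Oasl2 and Rtp4 (r = 0.82) and the GTPases Igtp and Iigp1 (r = 0.80) were closest, and Oasl2 had the highest mean correlation with the other members (0.49). Mx1 stood alone, with a mean of -0.09, and Irf1 was at 0.10.

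The mean deviation of the 37 genes from their own averages, on the log2 scale, gives each mouse 1 value. In Bmal1fl/fl mice it ran from -0.48 to 0.65 (median 0.08) and in Bmal1 IEC-/- mice from -0.55 to 0.45 (median -0.12). The 2 highest mice were Bmal1fl/fl replicates SV412 (0.65) and SV401 (0.58) at CT9, and another mouse of that group was at -0.22. SV412 held the highest value of all 48 mice for 12 of the 37 genes. Its T cell markers summed to 87.2 and its B cell markers to 50.5, the highest B cell sum among Bmal1fl/fl mice, and SV401 had their highest T cell sum, 98.2. High marker sums were also seen in mice with a low or middle value. SV469, a Bmal1fl/fl mouse at -0.25, had a T cell sum of 90.4, and SV410, a Bmal1 IEC-/- mouse at 0.05, had the highest B cell sum of all mice, 71.1. The part of these cells in the values was not tested. The lowest mouse was SV385, with the lowest value for 10 genes, and its T cell sum was 28.9.

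**Figure D5:**
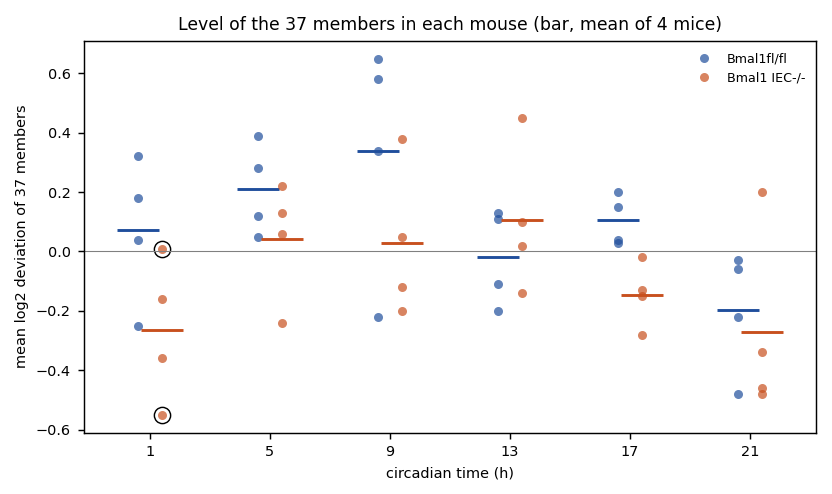
Mean log2 deviation of the 37 genes in each mouse against circadian time in hours (blue, Bmal1fl/fl; orange, Bmal1 IEC-/-); bars are means of 4 mice, and SV384 and SV385 are circled. Bmal1fl/fl means run from 0.34 at CT9 to -0.20 at CT21 and Bmal1 IEC-/- means from 0.11 at CT13 to -0.27 at CT1 and CT21, with mice of both genotypes overlapping at every time but CT17.

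The ligands of the pathway were near the detection limit. Of 17 interferon genes, 13 had 0 counts in all 48 mice. A single 0 allows up to 3 counts in that mouse, and 0 in all 48 mice bounds the mean more tightly. The others held 15 counts in total, 9 of them from Ifng, the interferon of T and NK cells. None could be tested. All 11 receptor and JAK-STAT genes were tested, and 1 was higher and 1 lower in Bmal1 IEC-/- mice. Ifngr1, the ligand-binding chain of the interferon gamma receptor, was at 814 ± 69.1 (SD, n = 24) normalized counts in Bmal1fl/fl and 892 ± 86.6 (n = 24) in Bmal1 IEC-/- mice (0.13 ± 0.04 SE, adjusted p = 0.0134). Jak2 was at 405 ± 46.1 and 357 ± 33.7 (-0.18 ± 0.04, adjusted p = 0.0014).

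Of 15 sensors and adaptors 14 were tested, and edgeR called 3 lower and 0 higher in Bmal1 IEC-/- mice (5 and 0 at an unadjusted p under 0.05). They were the kinase Tbk1, which phosphorylates Irf3 (-0.14, adjusted p = 0.00964), the ubiquitin ligase Trim25 (-0.11, adjusted p = 0.043) and Irf2, a transcription factor of the same family as Irf1 (-0.17, adjusted p = 0.0125). Of 12 inhibitors of the pathway, 10 were tested and edgeR called 0, with 1 at an unadjusted p under 0.05. Trex1, a nuclease of cytosolic DNA, was listed at 0 in every mouse. The authors left out reads that overlap several genes, so this 0 does not show that Trex1 is not expressed. Socs3, an inhibitor of JAK kinases, had an adjusted p of 0.201 for genotype and changed with time in Bmal1fl/fl mice (adjusted p = 5.57e-05). The background of 12% of genes called for genotype holds for these lists too.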

How the data were processed

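RNA of colon tissue was sequenced from 48 mice (24 per genotype, 4 per genotype and time) as paired reads of a stranded mRNA library. Per the labels and the study's methods, the authors trimmed reads with Trimmomatic 0.39, aligned them to mm10 with STAR 2.7.5c and counted those on exons with featureCounts 1.4.6. The strand setting and annotation release are not given in the sources used here. The deposited values are the authors' raw counts per gene, not normalized, and each column name is an animal number. Columns of no sample numbered 0.

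Symbols and GRCm38 positions came from GENCODE vM21, which held 55141 of 55401 identifiers (matched without version). edgeR 4.0.16 (filterByExpr, TMM, quasi-likelihood F test) was fitted to all 14618 genes kept, in R 4.3.3 with limma 3.58.1, and p-values were adjusted over all of them by Benjamini-Hochberg. Genotype effects were averaged over or taken at single times, and time, genotype by period, genotype by time and cosine terms were tested in the same way. Size factors of DESeq2 1.42.0 scaled the counts to give normalized counts. JTK_cycle was run with an own exact implementation (24 h, 12 phases) in Python 3.11.15 with numpy 2.4.6, pandas 2.3.3 and scipy 1.17.1, and figures with matplotlib 3.10.9. Peaks and amplitudes with SE came from least squares on log2 CPM. compareRhythms, which the study used, was replaced by edgeR's test on 2 degrees of freedom.

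On simulated data with the means and spread of these mice, the genotype test over 14618 genes recovered 99% of 200 genes changed by a fold of 2, and the change of rhythm test 90% of 200 genes that lost a relative amplitude of 0.6. No smaller effects were simulated. Over all times the log2 fold changes of the 37 genes lay between -0.55 and 0.13, so recovery at their sizes is not known. The totals of 3144997 to 4785844 counts limit genes of few counts. The floor for a count of 0 covers counting error only, whereas each SE and SD includes the spread between mice. The mice are separate animals, and no batch is given. The study's plot of colon samples holds 46 mice, and which were left out is not given in the sources used here; all 48 were fitted, and 46, without SV384 and SV385, as an alternative. Genes were named by a rule: the smallest p in each test (5 or 3 genes), the 3 highest and lowest levels, pathway genes past the threshold and up to 4 others per list. Other genes were named as examples after their values were seen. The members, the lists and the rules were chosen with earlier results of these data known. The study's fold changes and rhythm tables were not used.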

Additional observations from a re-analysis of the deposited data

Results flagged for a closer look

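Rsad2 differed between the genotypes over time, by the test of genotype by time (adjusted p = 0.00479, edgeR) and by the change of rhythm test (adjusted p = 0.00606). Of 84 groups of 4 mice examined for a single mouse far from the other three (6 genes and the mean of all members in 12 groups), 3 held one, and chance flags about 1 in 20 groups. Xaf1 was at 54.8 normalized counts in 1 Bmal1 IEC-/- mouse at CT21, with the others between 20.4 and 21.9. Mx1 was at 46.6 in 1 Bmal1fl/fl mouse at CT9, with the others between 31.6 and 34.0. Ifih1 was at 353 in 1 Bmal1 IEC-/- mouse at CT13, with the others between 277 and 289.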

How the results depend on the processing

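No paired analysis was possible because replicate names are animal numbers that the groups do not share. Of the 37 genes, the genotype test called 3. It called 0 without CT9, 9 without CT13, 1 without CT17, 1 with genotype as the only term, 5 in DESeq2 and 0 with the added fold change of 1.5. Leaving out 1 mouse gave 1 to 7 calls (1 without SV412, SV479 or SV400, 5 without SV384, SV441, SV415, SV439 or SV447, 6 without SV450 and 7 without SV444). Without the pair SV384 and SV385, CT1 gave 1 call in place of 8. Without the low-count filter, calls were 13 at CT1, 5 at CT9, 3 at CT13, 1 at CT21 and 10 for genotype by time. Leaving out 1 mouse gave 2 to 11 calls at CT1, 0 to 2 at CT9 (0 without SV401, SV412, SV400 or SV418, 2 without SV395 or SV415), 0 to 1 at CT13 (1 without SV421), 12 to 24 for time in Bmal1fl/fl and 8 to 15 in Bmal1 IEC-/- mice. Benjamini-Hochberg adjustment over genes left 7 of the 15 rhythms of Bmal1 IEC-/- mice. Of the 20 rhythms of Bmal1fl/fl mice it left all but those of Ddx58, Dhx58, Gbp7 and Psmb9. Fold changes near 0 turned sign. Bst2 was at -0.06 without the pair, -0.07 without CT1 and 0.00 without CT9, Gbp6 at -0.04 without CT5 and -0.13 without CT13, Ifi35 at -0.02 without the pair and -0.06 without CT1, Irf1 at -0.02 without CT1, Mx1 at 0.02 without the pair, 0.01 without CT1 and 0.05 without CT13, and Zbp1 at 0.03 without CT1. Leaving out 1 mouse moved Bst2 from -0.03 to 0.04, Gbp6 from -0.01 to 0.10 and Mx1 from -0.05 to 0.01. Rsad2 was called by the change of rhythm test under every alternative run. The cause of these changes was not tested, and counts for which no share of all genes is given cannot be set against the table. Genes of few counts, such as Ifi44 and Mx2, are limited by depth.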

Other observations

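Of 61 further interferon-induced genes 54 were tested, and 6 were lower and 2 higher in Bmal1 IEC-/- mice (edgeR). Among all genes, 12% were called in either direction and 5.56% were lower, so calls of this kind were not particular to these genes. Ido1, the tryptophan-degrading enzyme, was at 29.4 ± 14.5 (SD, n = 24) and 15.1 ± 10.3 normalized counts (log2 fold change -0.98 ± 0.21 SE, adjusted p = 0.000978). Sp100, a nuclear body protein, was also lower (-0.36 ± 0.09, adjusted p = 0.0028), as were Ifi27, Ly6e, Herc6 and Oas1g, with fold changes from -0.20 to -0.38. Lgals3bp, a secreted glycoprotein (0.22 ± 0.06, adjusted p = 0.00978), and Samd9l, an antiviral protein (0.19 ± 0.06, adjusted p = 0.0278), were higher.

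Time changed 22 of these 54 genes in Bmal1fl/fl mice (40.2% of all genes) and 15 in Bmal1 IEC-/- mice (28.5%), which is near the background in both. Ddx60, a helicase, had an amplitude of 1.06 on the log2 scale with a peak at 6.49 h in Bmal1fl/fl mice and of 0.88 at 8.79 h in Bmal1 IEC-/- mice. Cmpk2, a mitochondrial nucleotide kinase that works with Rsad2, was chosen after its values were seen. It peaked at 2.05 h with an amplitude of 0.38 in Bmal1fl/fl mice and at 6.47 h with 0.19 in Bmal1 IEC-/- mice (genotype by time adjusted p = 0.04, change of rhythm adjusted p = 0.123).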
